A study of Mus musculus with 16 samples.

Results

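The copines are a family of calcium-dependent phospholipid-binding proteins, and all 9 genes named Cpne1 to Cpne9 in the mouse annotation were followed here across 16 RNA-seq libraries of dorsal hippocampus. They were found by matching the Ensembl identifiers of the deposited count tables to gene symbols, which gave 9 of 55385 genes, and all 9 were among the 16899 genes that passed the filter on low counts. The family was selected on measured values: Cpne7 and Cpne9 were called at 5 days in an earlier analysis of these same libraries. The 5-day values of the copines are therefore given below as a description. Their 5-day calls and adjusted p-values come from the comparison that chose the family and are not independent support.

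The study set mice with a recombinant adeno-associated virus (rAAV) expressing exogenous Dnmt3a2 against mice whose rAAV expressed GFP, called Control here. Dnmt3a2 is the short isoform of a de novo DNA methyltransferase, which writes methyl groups onto cytosines in CG pairs. The virus was delivered to the dorsal hippocampus 3 weeks before contextual fear conditioning, a task in which a mouse learns to associate a place with a shock, and tissue was taken 1 day or 5 days after training. All 4 groups were injected and trained: Dnmt3a2 at 1 day, Control at 1 day, Dnmt3a2 at 5 days and Control at 5 days, with 4 libraries each. The labels name no promoter in the virus, strain, sex or age, and give no animal for a library. The p-values therefore measure library-to-library spread, which may be technical.

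Copines carry a pair of C2 domains, which bind membrane phospholipids when calcium rises, followed by a von Willebrand factor A domain that binds other proteins. They are thought to carry bound partners to membranes when a cell's calcium goes up. Cpne6, also called N-copine, is enriched in hippocampal neurons, where in mouse and rat work it acts on dendritic spines through the GTPase Rac1 and in signalling from the BDNF receptor TrkB. CPNE1 binds a subunit of NF-kappaB in mammalian cells, CPNE3 binds the receptor ErbB2 in human cancer cells, and Cpne7 takes part in the differentiation of mouse odontoblasts.

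The virus check came out as the labels state. Dnmt3a lay between 623.2 and 1249.4 CPM (counts-per-million, TMM-scaled) in the 8 Dnmt3a2 libraries, against 32.7 to 37.7 CPM in the 8 Control libraries. Totals ran between 28.64 and 29.96 M estimated counts per library. Hippocampal neurons were plainly present: in the 16 libraries, the summed levels of 8 CA1 markers ran between 941.8 and 1157.8 CPM and 13 dentate granule markers between 1007.4 and 1277.8 CPM. Summed levels of 11 markers of the choroid plexus, a tissue next to the hippocampus, ran between 131.4 and 1186.0 CPM in Dnmt3a2 and between 137.4 and 189.9 CPM in Control at 1 day. They ran between 160.5 and 1838.6 CPM in Dnmt3a2 and between 141.3 and 372.2 CPM in Control at 5 days, and 4 libraries stood apart, with a mean log2 level of these markers more than 1 above the median library: Dnmt3a2 replicates 1 and 3 at 1 day, Dnmt3a2 replicate 1 at 5 days and Control replicate 3 at 5 days. In bulk tissue, more or fewer cells of a type and more or less RNA per cell cannot be told apart.

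Cpne6 dominated the family in every library. Levels of different genes were compared only as CPM per kilobase of the longest protein-coding transcript. On that scale Cpne6 averaged 302.6 ± 25.5 (SD, n = 16 libraries), Cpne7 36.9 ± 12.7, Cpne4 33.0 ± 3.2 and Cpne9 12.1 ± 1.88. Below them lay Cpne2 at 9.13 ± 0.907, Cpne8 at 8.74 ± 0.684, Cpne5 at 5.56 ± 0.711, Cpne1 at 5.47 ± 0.571 and Cpne3 at 1.62 ± 0.183. The ranges of Cpne6 and Cpne7, of Cpne4 and Cpne9, of Cpne8 and Cpne5, and of Cpne1 and Cpne3 did not overlap, while the other neighbours in this order overlapped. Cpne9 was still above Cpne2 in 16 of 16 libraries, whereas Cpne2 exceeded Cpne8 in 9 of 16 and Cpne5 exceeded Cpne1 in 8 of 16.

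The place of Cpne7 in this order differed between the groups. It stood above Cpne4 in 3 of 4 Dnmt3a2 libraries and 1 of 4 Control libraries at 1 day, and in 4 of 4 Dnmt3a2 libraries and 0 of 4 Control libraries at 5 days. Per kilobase, Cpne7 averaged 40.7 CPM in Dnmt3a2 and 27.7 CPM in Control at 1 day, and 54.1 CPM in Dnmt3a2 and 25.1 CPM in Control at 5 days. The order depends on the length used. Divided by the union of all annotated exons instead, Cpne4 averaged 23.8 and Cpne7 16.8 CPM per kilobase, and Cpne7 then exceeded Cpne4 in 1 of 16 libraries, a Dnmt3a2 library at 5 days. The mean of Cpne9, 4.28, then lay below those of Cpne8 (7.06) and Cpne2 (6.68), and that of Cpne5 (2.34) below Cpne1 (4.24).

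**Figure D1:**
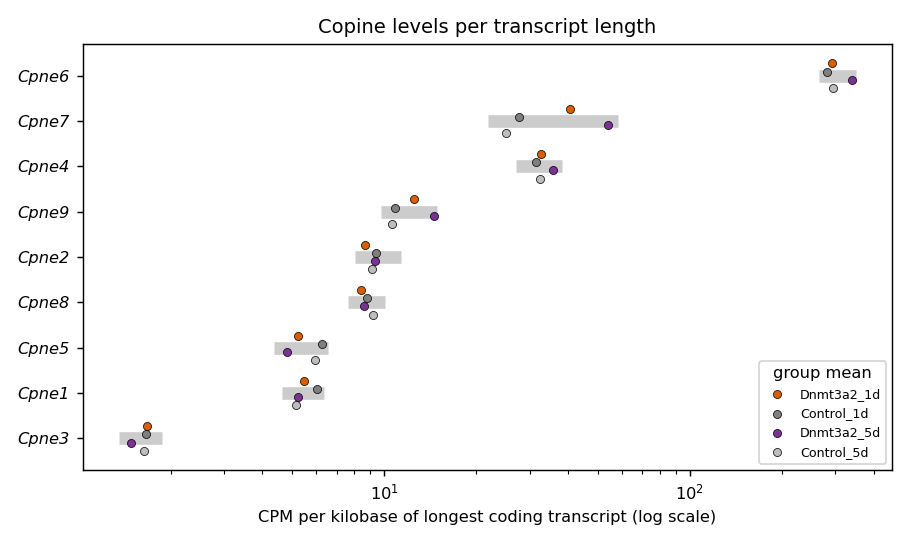
Level of each copine in CPM per kilobase of its longest protein-coding transcript, on a log axis; grey bars span the lowest to highest of 16 libraries and points are the means of the 4 groups. Cpne6 at 302.6 stands apart from the other 8, and the group means of Cpne7 run between 25.1 and 54.1.

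The 9 genes lie on 8 chromosomes of GRCm38, with Cpne2 and Cpne7 both on chromosome 8 (Cpne2 at chr8:94532990-94570531, Cpne7 at chr8:123117374-123135182, both on the plus strand). Cpne9 lies at chr6:113282307-113305627 (plus strand), Cpne6 at chr14:55510445-55517431 (plus strand), Cpne5 at chr17:29155556-29238167 (minus strand) and Cpne4 at chr9:104547286-105034544 (plus strand). Cpne1 lies at chr2:156071842-156111965, Cpne3 at chr4:19519254-19570108 and Cpne8 at chr15:90487482-90679432, all on the minus strand. Their coding sequences, of 1602 to 1782 bases, were between 61.1% and 76.0% identical over the 36 pairs, with a median of 63.8%. By this measure 2 sets of close relatives stood out. Cpne5, Cpne8 and Cpne9 shared 71.3% to 76.0%, with Cpne5 and Cpne9 the most alike pair of all, and Cpne4, Cpne6 and Cpne7 shared 68.3% to 71.0%.

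Family resemblance left most of the sequence of 8 copines unique to the gene. Of all 31-base words in the transcripts of each copine, the share also present in another gene was 0.0% for Cpne2 and Cpne4, 0.0224% for Cpne6, 1.12% for Cpne7, 1.27% for Cpne9, 2.98% for Cpne3, 4.02% for Cpne5 and 9.59% for Cpne8. Cpne1 was the exception at 78.7%. It overlaps the read-through gene Gm28036 on the same strand over 3755 exon bases, 83.3% of its own, and Rbm12, which encodes an RNA-binding protein, over 404. Its counts are uncertain for that reason. Cpne7 lies inside the span of a longer gene on the same strand, Gm20388 (chr8:119910841-124345722), but the annotated exons of Gm20388 and Cpne7 share 0 bases and 0.0% of 31-base words. On the opposite strand, AC162182.2 overlaps Cpne5 over 146 exon bases and Gm43935 overlaps Cpne9 over 3, and the highest level of either in any library was 0.1 CPM. The microRNA gene Mir7080 shares 67 exon bases with Cpne7 on the same strand and was listed at 0 in every library. Gm37274 in Cpne1, Gm23391 in Cpne4 and Gm6746 in Cpne8 overlap by position but share 0 exon bases.

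Because the virus carries a DNA methyltransferase, the CG pairs in the copine promoters are shown for Cpne9 and Cpne5, the closest relatives, whose differences between Dnmt3a2 and Control had opposite signs on both days. The windows cover 250 bases before to 50 after the RefSeq start on GRCm38.p6, with each CG in capitals. Cpne9 is chr6:113282057-113282356 on the plus strand and Cpne5 is chr17:29237741-29238040 on the minus strand.
Cpne9: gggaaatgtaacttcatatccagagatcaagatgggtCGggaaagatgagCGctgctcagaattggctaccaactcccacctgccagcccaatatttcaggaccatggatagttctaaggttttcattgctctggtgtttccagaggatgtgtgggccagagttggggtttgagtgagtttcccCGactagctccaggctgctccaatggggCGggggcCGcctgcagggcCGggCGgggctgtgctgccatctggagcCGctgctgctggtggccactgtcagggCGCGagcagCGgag
Cpne5: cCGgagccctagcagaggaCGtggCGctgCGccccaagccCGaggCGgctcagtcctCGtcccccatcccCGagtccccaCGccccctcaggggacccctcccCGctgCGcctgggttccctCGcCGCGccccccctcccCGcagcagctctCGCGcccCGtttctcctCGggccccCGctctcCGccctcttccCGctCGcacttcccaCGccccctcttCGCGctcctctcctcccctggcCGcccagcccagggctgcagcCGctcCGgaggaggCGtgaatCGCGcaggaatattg
The Cpne9 window held 11 CG pairs, and 41.4% of the 32851 mouse promoters of this length held as many or more. The Cpne5 window held 32, reached by 9.52% of promoters. The motif CG reads the same on both strands and occurs in 94.6% of all promoters, with a median of 7 a window. RefSeq windows were at hand for 6 of the 9 copines, and not for Cpne3, Cpne6 or Cpne7, the copine with the largest differences. Cpne8 held 32 and Cpne2 39, the most of the family, Cpne1 held 19, and the 2 Cpne4 starts held 14 and 1. Methylation itself was not measured in these libraries, and a CG count is a description of the sequence.

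At 1 day, no copine differed between Dnmt3a2 and Control past the threshold, a Benjamini-Hochberg adjusted p of 0.05 in edgeR's quasi-likelihood test over 16899 genes. Of all genes tested, 15 passed (0.0888%), and 0 of 9 copines did. At an unadjusted p under 0.05 there were 3 copines, Cpne7, Cpne5 and Cpne9, beside 7.17% of all genes. The median log2 fold change of the 9 was 0.02, against 0.003 over all genes, with 5 of 9 above 0.

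Cpne7 had the largest 1-day difference of the family. It measured 73.2, 102.2, 110.0 and 104.7 CPM in the Dnmt3a2 libraries, replicates 1 to 4, against 65.0, 61.4, 57.8 and 81.7 CPM in Control. Of the Dnmt3a2 libraries, 3 lay above all Control libraries, and replicate 1 fell below Control replicate 4. The log2 fold change was 0.55 (SE 0.13, 95% interval 0.27 to 0.83), with an edgeR adjusted p of 0.208. Dnmt3a2 replicate 1 was also the library with the least Dnmt3a of the 8 (623.2 CPM, the other Dnmt3a2 libraries of that day 982.3 to 1153.2) and is rich in choroid plexus RNA. Their part in the Cpne7 value was not tested. Without that library the log2 fold change was 0.67 and the edgeR adjusted p 0.0167, and DESeq2 on all libraries gave 0.00389. Of 28 alternative fits, only these 2 put Cpne7 under the threshold, and over all 28 its log2 fold change ran between 0.49 and 0.67. Without all 4 choroid-rich libraries it was 0.64 with an adjusted p of 0.146.

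For its relatives Cpne4 and Cpne6 the groups overlapped at 1 day. Cpne6 measured 594.1, 685.7, 654.1 and 650.1 CPM in Dnmt3a2, against 604.1, 643.3, 585.1 and 647.9 CPM in Control, with a higher mean in Dnmt3a2 (log2 fold change 0.06, 95% interval -0.04 to 0.16, edgeR adjusted p 0.861). Cpne4 averaged 129.3 ± 15.7 CPM in Dnmt3a2 and 124.8 ± 13.7 CPM in Control (SD, n = 4 each). Its interval, -0.13 to 0.23 on the log2 scale, leaves room for a change in either direction.

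Cpne5 was the copine whose 1-day groups did not overlap, as was the case for 3.43% of all genes, 1.76% with Dnmt3a2 lower. It measured 31.4, 31.1, 26.1 and 30.7 CPM in Dnmt3a2, against 35.9, 36.9, 37.0 and 33.2 CPM in Control, so all 4 Dnmt3a2 libraries lay below all 4 Control libraries. The log2 fold change was -0.26 (SE 0.08, 95% interval -0.43 to -0.10; edgeR adjusted p 0.373). Its closest relative Cpne9 leaned the other way, with 32.8, 37.4, 36.9 and 31.2 CPM in Dnmt3a2, against 33.9, 30.5, 28.5 and 27.9 CPM in Control. The Cpne9 groups overlapped through Control replicate 1, and the log2 fold change was 0.20 (SE 0.08; edgeR adjusted p 0.616). Cpne8 averaged 28.2 ± 1.86 CPM in Dnmt3a2 and 29.6 ± 1.77 CPM in Control, and the groups overlapped.

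The 3 remaining members had overlapping groups at 1 day. Cpne2 averaged 20.3 ± 1.52 CPM in Dnmt3a2 and 22 ± 2.12 CPM in Control. Cpne3, the least abundant copine, averaged 9.49 ± 1.22 CPM in Dnmt3a2 and 9.35 ± 1.18 CPM in Control (SD, n = 4 each). Their log2 fold changes were -0.12 (95% interval -0.32 to 0.08) and 0.02 (95% interval -0.21 to 0.26). Cpne1 averaged 19.1 ± 1.11 CPM in Dnmt3a2 and 21.0 ± 1.33 CPM in Control, a log2 fold change of -0.14 that became -0.03 when its counts were summed with those of Gm28036 and Rbm12.

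**Figure D2:**
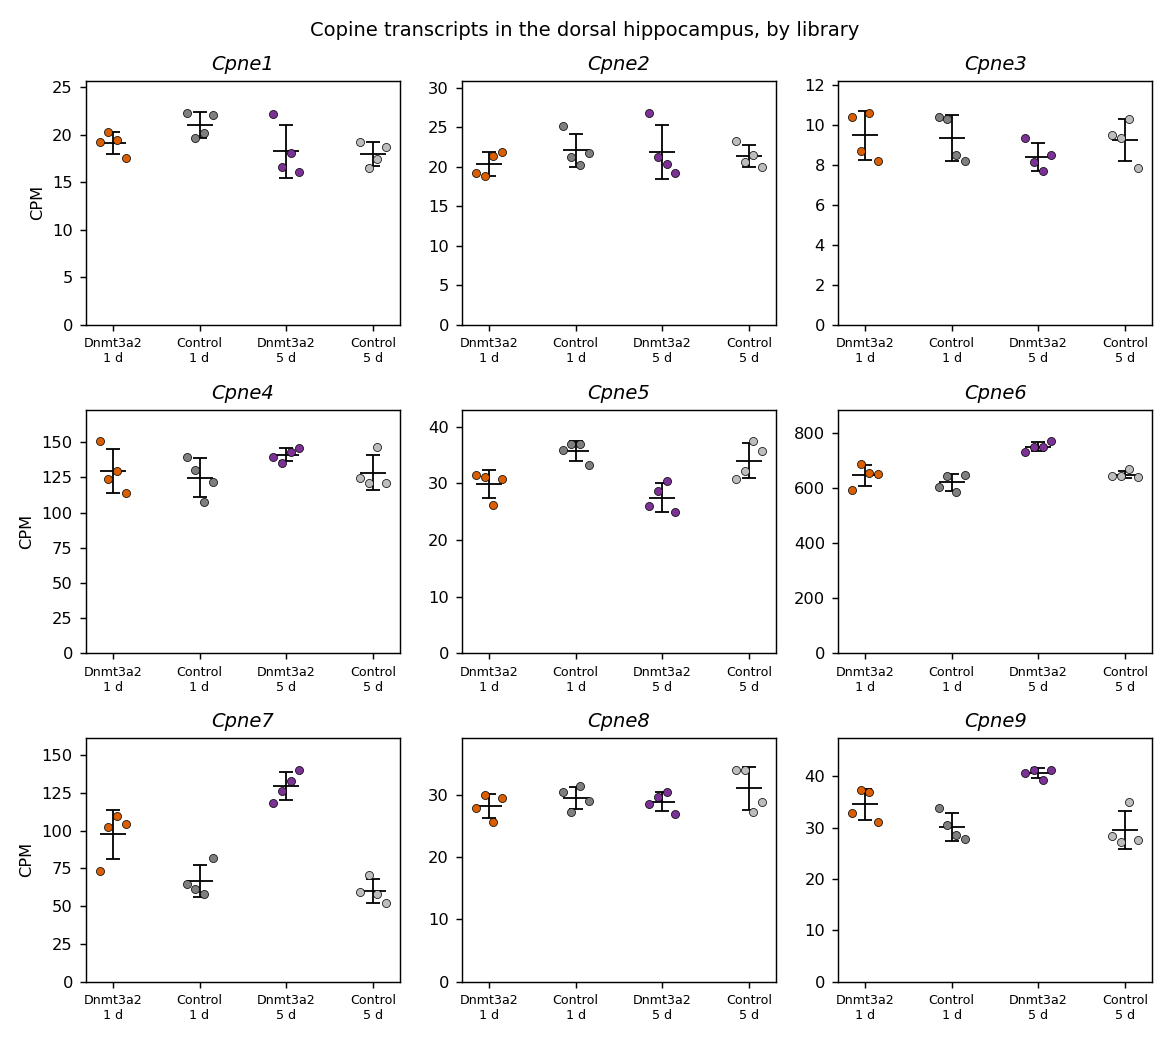
CPM of each copine in every library (points) with the group mean and SD (bars, n = 4), each panel from 0 on its own scale. For Cpne7, the 4 Dnmt3a2 libraries at 5 days lie between 118.5 and 140.4 CPM and the 4 Control libraries of that day between 52.4 and 70.9 CPM.

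At 5 days, the comparison that brought the family forward, Cpne7 and Cpne9 were the called members, 2 of 9, both higher in Dnmt3a2, where 54 of all genes tested were called (0.32%) and 0.148% were called higher. Cpne7 measured 118.5, 126.6, 133.0 and 140.4 CPM in Dnmt3a2, against 59.3, 70.9, 57.9 and 52.4 CPM in Control. The lowest Dnmt3a2 library was well above the highest Control library. The means were 129.6 ± 9.31 CPM in Dnmt3a2 and 60.1 ± 7.80 CPM in Control (SD, n = 4 each), a ratio of 2.16 and a log2 fold change of 1.11 (SE 0.13). Gm20388, the gene around it, varied between 0.461 and 32.7 CPM in Dnmt3a2 and between 2.01 and 27.1 CPM in Control at 5 days. With the counts of both genes summed, the log2 fold change of the sum was 0.93 (SE 0.18) and the call was lost. The annotated exons of Cpne7 and Gm20388 share 0 bases.

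Cpne9 measured 40.6, 41.3, 39.3 and 41.3 CPM in Dnmt3a2 at 5 days, against 28.4, 27.2, 35.0 and 27.6 CPM in Control. The Dnmt3a2 libraries were tightly grouped and all above Control, whose replicate 3 was the highest. The log2 fold change was 0.46 (SE 0.08), a ratio of means of 1.38. The call for Cpne9 was lost when any of Dnmt3a2 replicate 4 or Control replicates 1, 2 or 4 of that day was left out, while its log2 fold change stayed between 0.42 and 0.45 in those fits.

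The values that chose the family were these calls: the edgeR adjusted p was 0.014 for Cpne9, the member just inside the threshold, and 0.06 for Cpne6, the member just outside it. Cpne5, lower in Dnmt3a2, came next at 0.13. Of 28 alternative fits at 5 days, 5 put Cpne6 and 2 put Cpne5 under the threshold. DESeq2 gave adjusted p-values of 0.00266 for Cpne6 and 0.0368 for Cpne5, from the same libraries that chose the family. Cpne6, already the most abundant copine, measured 730.2, 750.2, 747.2 and 769.4 CPM in Dnmt3a2, against 642.3, 645.0, 667.3 and 639.9 CPM in Control, with no overlap (log2 fold change 0.21, SE 0.05). Its means were 749.2 ± 16 CPM in Dnmt3a2 and 648.6 ± 12.6 CPM in Control (SD, n = 4 each). Cpne5 measured 25.9, 28.7, 30.4 and 24.9 CPM in Dnmt3a2, against 30.7, 32.2, 37.4 and 35.6 CPM in Control, with every Dnmt3a2 library below every Control library (log2 fold change -0.31, SE 0.08). Groups that did not overlap were found for 4 of 9 copines at 5 days, where 6.29% of all genes had them. Cpne7 and Cpne9, which chose the family, are among the 4, so this count is a description.

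The other 5 copines overlapped between the groups at 5 days. Cpne4 averaged 140.9 ± 4.50 CPM in Dnmt3a2 and 128.4 ± 12.4 CPM in Control. Cpne8 averaged 28.9 ± 1.59 CPM in Dnmt3a2 and 31 ± 3.43 CPM in Control, and Cpne3 averaged 8.41 ± 0.702 CPM in Dnmt3a2 and 9.24 ± 1.02 CPM in Control. Cpne1 and Cpne2 had log2 fold changes of 0.02 and 0.04. In each, the highest Dnmt3a2 library was replicate 1, one of the choroid-rich libraries, with 22.2 CPM for Cpne1 and 26.8 CPM for Cpne2. Without the choroid-rich libraries their log2 fold changes were -0.10 and -0.07. The part of choroid plexus RNA in these values was not tested.

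Summed over the 9 genes, the family stood at 1165.4 ± 21.5 CPM in Dnmt3a2 and 980.2 ± 29.2 CPM in Control at 5 days, and at 1014.3 ± 42.3 CPM in Dnmt3a2 and 959.3 ± 43.5 CPM in Control at 1 day (SD, n = 4 each). Within that sum Cpne7 made up 11.1% in Dnmt3a2 and 6.14% in Control at 5 days. Cpne5 made up 2.36% in Dnmt3a2 and 3.46% in Control. The sum is of CPM, not of levels per length.

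**Figure D3:**
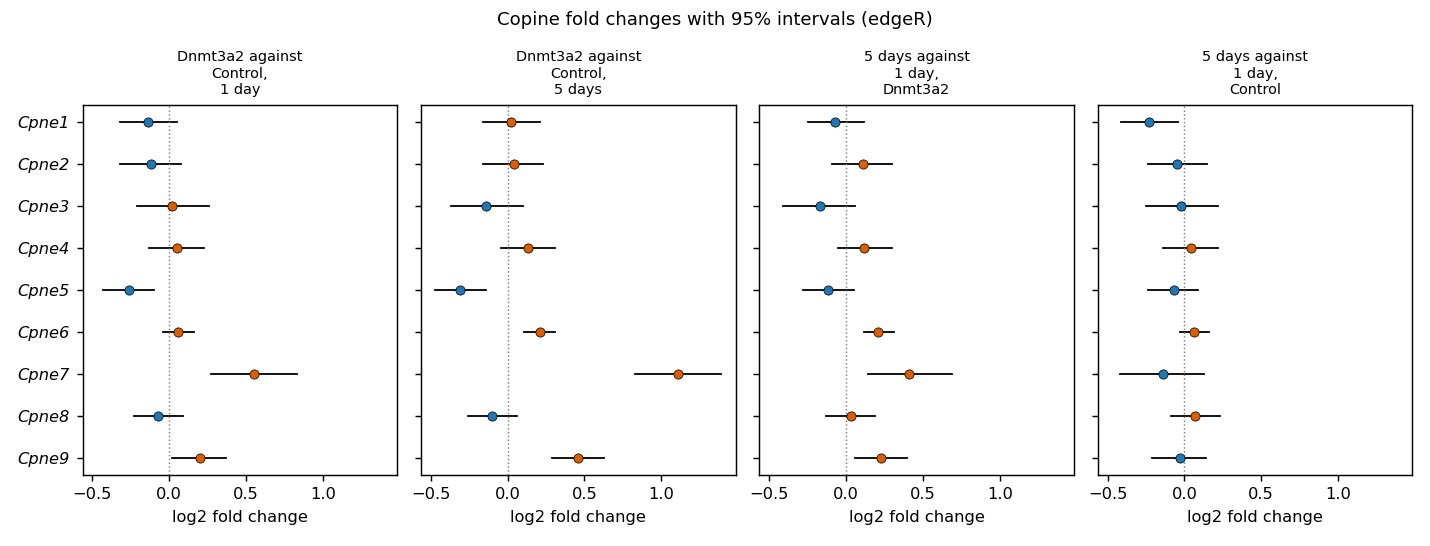
Log2 fold change of each copine (points, orange above 0 and blue below) with its 95% interval (lines) in 4 comparisons from 1 edgeR fit over 16 libraries. Cpne7 is at 0.55 at 1 day and 1.11 at 5 days for Dnmt3a2 against Control; the 5-day panel is a description, since it chose the family, and the panels share libraries.

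Set against 1 day, the 5-day libraries had no gene past the edgeR threshold within either virus group, so 0 of 9 copines were called where 0% of all genes were (1822 genes in Dnmt3a2 and 598 in Control had an unadjusted p under 0.05). These comparisons use the same 5-day libraries that brought the family forward and are not independent of it. In Dnmt3a2, 3 copines had an unadjusted p under 0.05 beside 10.8% of all genes, and the same 3 had 5-day libraries all above their 1-day libraries, beside 5.17% of genes whose groups did not overlap and 2.68% with 5 days higher. These were Cpne6 (log2 fold change 0.21, SE 0.05, edgeR adjusted p 0.187), Cpne7 (0.41, SE 0.13, edgeR adjusted p 0.327) and Cpne9 (0.23, SE 0.08, edgeR adjusted p 0.339). DESeq2 called 44 genes, among them Cpne6 with an adjusted p of 0.00634. The summed oligodendrocyte and astrocyte markers did not overlap over the same libraries, and were lower at 5 days. Those of 10 microglia markers overlapped, at 388.7 to 529.7 CPM at 5 days and 325.9 to 528.8 CPM at 1 day. Of the microglia markers, 8 of 10 were above 0, with a median log2 fold change of 0.07. The summed levels of 10 oligodendrocyte markers ran between 3505.2 and 4209.3 CPM at 5 days and between 4250.1 and 6321.9 CPM at 1 day, with 1 of 10 above 0 and a median log2 fold change of -0.25. Those of 10 astrocyte markers ran between 3693.5 and 4009.1 CPM at 5 days and between 4042.2 and 4446.3 CPM at 1 day, with 0 of 10 above 0 and a median of -0.10. Of 10 vascular markers, 2 were above 0, with a median log2 fold change of -0.21. No marker of these lists was called. At an unadjusted p under 0.05 there were 4 oligodendrocyte, 3 astrocyte, 2 vascular and 1 microglia markers. The part of these cell types in the copine values was not tested.

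In Control, the same 3 genes had intervals that included 0: Cpne6 0.06 (95% interval -0.03 to 0.16), Cpne7 -0.14 (-0.42 to 0.13) and Cpne9 -0.03 (-0.21 to 0.14). The copine that stood out there was Cpne1, at 19.2, 16.5, 17.4 and 18.7 CPM at 5 days, against 22.3, 19.6, 20.2 and 22.1 CPM at 1 day. All 5-day libraries were below all 1-day libraries, as for 2.4% of genes in either direction and 1.27% in this one, with a log2 fold change of -0.23 (SE 0.09, edgeR adjusted p 0.999). Over the same libraries Gm28036, which holds most of the Cpne1 exons, averaged 9.63 ± 1.70 CPM at 5 days and 6.17 ± 2.50 CPM at 1 day. With the counts of Cpne1, Gm28036 and Rbm12 summed, the log2 fold change was 0.04. How reads were divided between these genes and a change in either cannot be told apart. By unadjusted p, Cpne1 was the 1 copine under 0.05, beside 3.54% of all genes, and DESeq2 called 0 genes. Marker lists leaned over time in Control too. Of 13 dentate granule markers, 13 were above 0 (median log2 fold change 0.09). Of 10 oligodendrocyte markers 2 were above 0 (-0.10), and of 10 vascular markers 0 were (-0.17). None was called, and their part in the copine values was not tested.

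The effect of Dnmt3a2 was not shown to differ between the days for any copine. This difference of effects had 0 genes past the edgeR threshold (0% of 16899), and 1 gene with DESeq2, not a copine. At an unadjusted p under 0.05 there were 360 genes (2.13%), among them 3 of 9 copines, Cpne6, Cpne7 and Cpne9. The 5-day libraries that chose the family enter this difference, so the copine count is a description. For Cpne7 the 5-day effect exceeded the 1-day effect by 0.56 (SE 0.18) on the log2 scale and for Cpne9 by 0.26 (SE 0.12). For Cpne5 the effects differed by -0.04 (SE 0.11), with Cpne5 lower in every Dnmt3a2 library than in every Control library of the same day. For Cpne6 the difference was 0.15 (SE 0.07, edgeR adjusted p 1.0).

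The copines did not move as a block from library to library. With the group means subtracted, the 36 pairs had a median Pearson r of 0.025 over 16 libraries of log2 CPM, and 19 pairs were above 0. The highest were Cpne3 with Cpne4 at 0.71, Cpne6 with Cpne7 at 0.69 and Cpne1 with Cpne2 at 0.62. The lowest was Cpne5 with Cpne7 at -0.50. These are descriptions over libraries that share tissue, depth and scaling. Among the close coding relatives, Cpne5 with Cpne9 was at 0.12, Cpne5 with Cpne8 at 0.02 and Cpne8 with Cpne9 at -0.43. In the other set, Cpne4 with Cpne7 was at -0.29, Cpne4 with Cpne6 at -0.08 and Cpne6 with Cpne7 at 0.69.

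**Figure D4:**
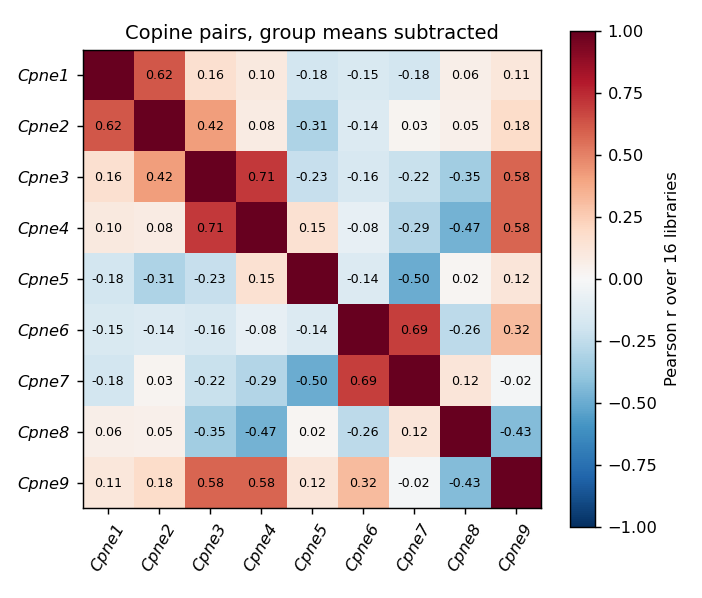
Pearson r of log2 CPM between each pair of copines over 16 libraries after the mean of each group was subtracted; red is above 0 and blue below. Cpne3 with Cpne4 (0.71) and Cpne6 with Cpne7 (0.69) are the strongest pairs and no block spans the family.

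The genes whose pattern was most like that of Cpne7 were not copines. Among 13132 genes, the highest r with Cpne7 after subtraction of group means were those of Nudt14 (0.93), Pcdha2 (0.88), Wdr3 (0.87), Sec11c (0.84) and Sult2b1 (0.83). Without subtraction, where the virus groups enter, they were Brd9 (0.94), Dnmt3a itself (0.90), Ecm2 (0.89), Pip4k2c (0.89) and Fam19a1 (0.89). For Cpne9 the nearest genes after subtraction were Tubb2a and Nprl3 (both 0.82), Sh3kbp1 and Gpr12 (both 0.78) and Wdr1 (0.77). As measured they were Cadm3 (0.89), Ecm2 (0.88), Strip2 (0.87), Pcdh10 (0.86) and Pip4k2c (0.86). Ecm2 and Pip4k2c appear beside both copines on the unsubtracted scale. Both copines were chosen for their difference between the virus groups at 5 days, so nothing is read from these shared neighbours.

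Other calcium and phospholipid-binding genes had 0 called members, which for lists of these sizes is near the background of 0.0888% of all genes at 1 day and 0.32% at 5 days. Of 54 listed genes with C2 domains, among them synaptotagmins, Doc2 proteins, rabphilin and Rims, 49 were tested and 0 passed at either day in edgeR. Their median log2 fold change was -0.04 at 1 day and 0.02 at 5 days, with 5 and 6 of 49 at an unadjusted p under 0.05, beside 7.17% and 8.01% of all genes. Of 12 annexins, which bind phospholipids with calcium through another fold, 10 were tested and 0 passed, with 0 at an unadjusted p under 0.05 on both days and medians of 0.02 and 0.04. Of 13 reported copine partners and genes of the spine actin pathway, all were tested, 0 passed, 0 had an unadjusted p under 0.05 on either day, and the medians were -0.02 on both days. No gene of these lists was called over time within either virus group.

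Some marker lists of hippocampal and neighbouring cells leaned with the virus groups, and their part in the copine values was not tested. Summed levels of 8 subiculum and entorhinal markers ran between 211.0 and 295.0 CPM in Dnmt3a2 and between 298.5 and 356.0 CPM in Control at 1 day. At 5 days they ran between 220.3 and 264.4 CPM in Dnmt3a2 and between 270.7 and 315.1 CPM in Control. None of the 8 had a log2 fold change above 0 at 1 day and 2 did at 5 days, where Lypd1 fell (log2 fold change -0.43, edgeR adjusted p 0.0104). The 14 CA3 and CA2 markers, chosen without copines, overlapped between the groups on both days, with 9 of 14 above 0 and a median of 0.05 at 1 day, and 11 of 14 and 0.12 at 5 days. None was called. The 8 CA1 markers had 5 above 0 and a median of 0.04 at 1 day, and 6 and 0.07 at 5 days, with 0 called. On each day 4 of the 8 had an unadjusted p under 0.05, with both signs among them, beside 7.17% and 8.01% of all genes. The 13 dentate granule markers had 9 above 0 and a median of 0.02 at 1 day, and 5 above 0 and a median of -0.11 at 5 days. Of these 13, 3 had an unadjusted p under 0.05 at 1 day and 6 at 5 days. Their summed levels ran between 1066.2 and 1154.7 CPM in Dnmt3a2 and between 1143.5 and 1277.8 CPM in Control at 5 days. Among them, Calb1, a calcium buffer, rose at 1 day (0.39, edgeR adjusted p 0.0241) and at 5 days (0.35, edgeR adjusted p 0.0258), and C1ql2, a secreted synaptic protein, fell at 5 days (-0.60, edgeR adjusted p 0.00119). The 10 interferon response genes had 10 above 0 and a median of 0.43 at 1 day, and 9 above 0 and a median of 0.75 at 5 days, with 0 called. Of 10 oligodendrocyte markers, 9 were above 0 at 1 day (median 0.18) and 7 at 5 days (0.04), and of 10 astrocyte markers 8 were above 0 at 1 day (0.10, 4 at an unadjusted p under 0.05) and 6 at 5 days (0.01), with 0 called. Of 10 neocortex neuron markers, 5 were above 0 at 1 day (median -0.10) and 3 at 5 days (-0.08). On each day 3 of these had an unadjusted p under 0.05, with 0 called. All 11 choroid plexus markers had log2 fold changes above 0 on both days, with 0 called. Their medians were 1.75 at 1 day and 1.85 at 5 days, where 2 had an unadjusted p under 0.05. No marker of these lists was at 0 in all libraries. Without the 4 choroid-rich libraries the log2 fold changes at 5 days were 1.13 for Cpne7 and 0.55 for Cpne9.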

How the data were processed

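Total RNA (500 ng per library) from mouse dorsal hippocampus was sequenced by BGISeq-500 protocols, per the labels' protocols. The authors' files hold estimated counts per Ensembl gene and log2 CPM per gene. Per the submitters' processing notes, the tools were edgeR 3.17, kallisto 0.4.6 and Trim Galore 0.6.4, with the build GRCm38.p6. The strand setting, the annotation release and the step from transcripts to genes were not stated there, so genes overlapping on opposite strands may share reads. Of the deposited estimated counts, 26.0% were not whole numbers (tolerance 1e-06), and they were rounded before testing. The deposited log2 CPM held 16907 genes and matched values recomputed from the counts to 5.3e-15.

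Genes were named with GENCODE M21 on GRCm38 (55144 of 55385 identifiers). Counts were filtered with filterByExpr, scaled by TMM and fitted with edgeR 4.0.16 (robust quasi-likelihood, a term per group, R 4.3.3), with Benjamini-Hochberg adjustment over 16899 genes and a threshold of 0.05. CPM values are TMM-scaled. The procedure was tested on simulated data. DESeq2 1.42.0, limma 3.58.1 and other filters, lengths and left-out libraries served as alternatives. Words of 31 bases were compared with all annotated transcripts. Coding sequences were taken as the longest open reading frame of protein-coding transcripts and aligned with Biopython 1.88. Replicates within groups differed beyond sampling noise (chi-square per gene 4.43 to 33.5 over 24 pairs), so none was merged.

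The members and all gene lists were chosen with earlier results of these data known. The text names all copines, genes that overlap them, called members of the lists, and for Cpne7 and Cpne9 the 5 genes of highest Pearson r on each scale. Intervals are 95% and cover the spread between libraries. Comparisons share libraries with each other.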

Additional observations from a re-analysis of the deposited data

Results flagged for a closer look

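In 3 of the 36 groups checked (9 copines in 4 groups of 4 libraries), 1 library stood far from the other 3, with a gap over the range of the group above Dixon's critical value of 0.829. Chance alone gives about 1 in 20 such groups. In Control at 5 days, replicate 3 had 146.8 CPM of Cpne4, the other libraries 120.9 to 124.8 CPM. The same library had 35.0 CPM of Cpne9, the others 27.2 to 28.4 CPM. It is also the Control library richest in choroid plexus RNA, with 157.2 CPM of the marker Ttr and 5.51 to 10.9 CPM in the other Control libraries of that day. Whether this bears on its copine values was not tested. In Dnmt3a2 at 1 day, replicate 3 had 26.1 CPM of Cpne5, the others 30.7 to 31.4 CPM. Without Control replicate 3 the 5-day log2 fold change of Cpne9 was 0.55.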

How the results depend on the processing

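Each comparison was recomputed under 28 alternatives, or 27 for the difference between days, where a fit of only the groups compared was not possible. Genes called at 1 day, 15 as reported, numbered 59 with DESeq2, 34 without a filter on low counts, 7 with only the groups compared, 7 without the choroid-rich libraries and 6 to 22 with 1 library left out. Copines called at 1 day, 0 as reported, numbered 1 with DESeq2 (Cpne7) and 0 to 1 with 1 library left out (Cpne7, without Dnmt3a2 replicate 1). Genes called at 5 days, 54 as reported, numbered 143 with DESeq2, 94 with only the groups compared and 22 to 82 with 1 library left out. Copines called at 5 days, 2 as reported, numbered 4 with DESeq2, 1 with the counts of Cpne7 and Gm20388 summed, where the log2 fold change of Cpne7 was 0.93, and 1 to 3 with 1 library left out. DESeq2 added Cpne5 and Cpne6. Cpne6 also passed with a filter at a mean of at least 1 CPM and with only the groups compared, and Cpne5 without a filter on low counts. In Dnmt3a2 over time, 0 genes as reported became 44 with DESeq2, 6 without a filter and 0 to 1 with 1 library left out, and copines numbered 1 with DESeq2. The difference between days had 1 gene with DESeq2. The libraries whose absence moved a count of genes by over 1.5 times were, at 1 day, Dnmt3a2 replicate 3 (7 genes) and Control replicate 2 (6). At 5 days they were Dnmt3a2 replicates 3 (33) and 4 (22), Control replicates 1 (29), 3 (30) and 4 (26), and the 1-day Control replicate 3 (82). The cause of these changes was not tested, beyond the smaller number of libraries where some were left out.

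Signs changed for copines that were not called. The largest of these was Cpne1 over time in Control, -0.23 as reported and 0.04 with Cpne1, Gm28036 and Rbm12 summed, and next was Cpne3 for the difference between days, -0.16 as reported and 0.01 without the choroid-rich libraries. Without the choroid-rich libraries the log2 fold changes at 1 day were -0.15 for Cpne3, -0.07 for Cpne4 and 0.00 for Cpne8, and at 5 days -0.10 for Cpne1 and -0.07 for Cpne2. Over time they were -0.01 for Cpne2 and -0.03 for Cpne8 in Dnmt3a2 and -0.03 for Cpne4 in Control. With Cpne1, Gm28036 and Rbm12 summed, an alternative chosen after seeing the data, Cpne1 over time was at 0.09 in Dnmt3a2. With 1 library left out, the values that crossed 0 ran at 1 day between -0.04 and 0.08 for Cpne3 and between -0.03 and 0.11 for Cpne4, and at 5 days between -0.09 and 0.07 for Cpne1 and between -0.07 and 0.09 for Cpne2. Over time in Dnmt3a2 they ran between -0.00 and 0.16 for Cpne2 and between -0.01 and 0.06 for Cpne8. Over time in Control they ran between -0.09 and 0.02 for Cpne2, -0.08 and 0.05 for Cpne3, -0.03 and 0.10 for Cpne4, and -0.12 and 0.03 for Cpne9. For the difference between days they ran between -0.10 and 0.00 for Cpne5 and between -0.09 and 0.01 for Cpne8. Levels in CPM per kilobase of all exons were 156.4 for Cpne6, 23.8 for Cpne4, 16.8 for Cpne7, 7.06 for Cpne8, 6.68 for Cpne2, 4.28 for Cpne9, 4.24 for Cpne1, 2.34 for Cpne5 and 1.28 for Cpne3.

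Same-numbered libraries were not treated as pairs, since the labels tie no number to an animal or batch and the correlation of their deviations ran between -0.134 and 0.407 over 24 pairs, not above 0.1 in each. As a hint of such a tie from the data alone, 8 of 16 libraries were closest to one of their own number. Libraries of other numbers were the majority of the candidates. With the replicate number as a block, 17 genes and 0 copines were called at 1 day, 65 genes and 2 copines at 5 days, and 0 genes over time in either virus group or for the difference between days. Depth differed little, at 28.64 to 29.96 M counts per library, but was not the same in each group. Dnmt3a2 at 5 days (29.81 to 29.96 M) lay above Dnmt3a2 at 1 day (28.77 to 29.68 M) and Control at 5 days (28.64 to 29.76 M). With 4 libraries a group the intervals of the less abundant copines leave room for small changes.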
